A study of Homo sapiens with 18 samples.

Results

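Doxorubicin, an anthracycline used against breast cancer, traps topoisomerase II on DNA, and the genes described here encode the human topoisomerases and the enzymes that remove trapped topoisomerases. The 8 genes were taken by name (TOP1, TOP1MT, TOP2A, TOP2B, TOP3A, TOP3B, TDP1 and TDP2) from 60603 genes in each count table. They were followed through all 9 conditions of the series, and all 8 passed the filter on low counts in both experiments.

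Topoisomerases relax and untangle DNA by cutting it and holding the cut end through a tyrosine. The type II enzymes TOP2A and TOP2B cut both strands and are the protein targets of doxorubicin. TOP2A is made mainly in cycling cells and separates replicated chromosomes, whereas TOP2B is also made in resting cells and acts in transcription. TOP1 cuts a single strand ahead of replication and transcription forks, and TOP1MT does so in mitochondria. TOP3A works with the BLM helicase on recombination intermediates and in mitochondria, and TOP3B acts on RNA as well as DNA together with TDRD3. When a topoisomerase stays stuck, TDP2 cleaves the bond of type II enzymes and TDP1 that of TOP1 and TOP1MT.

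MDA-MB-231 is a mesenchymal triple-negative breast cancer cell line, and its poly(A) RNA was sequenced in 18 libraries. The transient experiment comprised 6 libraries, with 2 each from control cells labelled untreated, from control cells given 0.6 µM doxorubicin for 48 h, and from cells whose label gives transient Flag-ZMYND8 overexpression together with the drug. The protocol states that cells received FLAG-ZMYND8 or empty vector 24 h earlier. The inducible experiment comprised 12 libraries from a line carrying GFP and a line carrying Flag-ZMYND8, each without doxorubicin (0 h) and after 6 or 48 h at 0.6 µM, with 2 libraries per condition. Both constructs were in the lentiviral vector pInducer20, both lines were selected with G418, and both received 250 ng/mL doxycycline, from 4 h before the drug. ZMYND8 is a chromatin reader, and the study asked how its overexpression alters the response to the drug. Each construct was represented by 1 line, so ZMYND8 and any other difference between the lines cannot be told apart. Within a line, the same untreated libraries served both drug times, and their labels give no time of collection. Doxorubicin and time since induction or in culture therefore cannot be told apart in comparisons with 0 h.

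The libraries held 18300628 to 23724398 counts in the inducible experiment and 5729294 to 24713822 in the transient experiment, in which 1 library with doxorubicin was several times deeper than the others. KRT8, KRT18, VIM and CD44 were above 296 CPM (counts scaled to the TMM-adjusted library total) in every library, and KRT19 was at 98.6 to 371 CPM. ESR1 and PGR stayed below 0.8 CPM, whereas EPCAM (6.89 to 44.5 CPM) and CDH1 (0.58 to 21.7 CPM) were detected in every library. Of the markers of other cell types, CD3E stayed below 0.33 CPM and ALB reached 0.38 CPM, but PTPRC reached 3.95 CPM and PECAM1 5.59 CPM. ZMYND8 itself was at 829 to 1001 CPM in the 6 libraries of the inducible ZMYND8 line and at 93.8 to 209 CPM in those of the GFP line. In the transient experiment it was at 125 and 160 CPM in the libraries labelled Flag-ZMYND8 and at 123 and 182 CPM with doxorubicin alone, so that the label was not borne out by the transcript. The second libraries of these 2 drug conditions, compared in proportion to depth, also differed by a chi-square of only 1.39 per degree of freedom. The value was 9.71 for the next closest transient pair and at least 10.7 within a transient condition. Within an inducible condition it was 2.19 to 5.21. The 2 second libraries held 24713822 and 5740091 counts, so their counts nearly coincide only relative to depth. Transient calls are therefore given with and without these libraries, a choice made after seeing the data. The transient counts did not separate the strands: antisense genes within exons of a sense gene reached a median of 1.46 to 1.65 times its read density, against 0.063 to 0.10 times in the inducible libraries.

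In the deposited annotation (hg38), TOP2A (ENSG00000131747.15) lies on chromosome 17 at 40388525 to 40417896 and TOP3A (ENSG00000177302.15) at 18271428 to 18315007 of the same chromosome, both on the minus strand. TOP2B (ENSG00000077097.15) lies on the minus strand of chromosome 3 at 25597905 to 25664907 and TOP1 (ENSG00000198900.6) on the plus strand of chromosome 20 at 41028822 to 41124487. TOP3B (ENSG00000100038.19) covers 21957025 to 21982816 of chromosome 22 on the minus strand, and 90.71% of its exon bases also lie in exons of the antisense gene PPM1F-AS1. TDP1 (ENSG00000042088.13) is at 89954939 to 90044768 on the plus strand of chromosome 14, and TDP2 (ENSG00000111802.14) at 24649979 to 24666930 on the minus strand of chromosome 6. The counts cover whole genes by their exons and do not distinguish isoforms.

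The promoters of both doxorubicin targets are shown because TOP2A and TOP2B were the pair whose transcripts moved apart. Each window runs from 250 bases before to 50 bases after the RefSeq start site (GRCh38.p14), 5′ to 3′ on the gene's strand, at chr17:40417847-40418146 for TOP2A and chr3:25664858-25665157 for TOP2B. Capitals mark matches to CCAAT, the box bound by NF-Y, and to TTTGAA, the core of the cell cycle homology region (CHR), on either strand, where a match on the opposite strand reads ATTGG or TTCAAA.
TOP2A: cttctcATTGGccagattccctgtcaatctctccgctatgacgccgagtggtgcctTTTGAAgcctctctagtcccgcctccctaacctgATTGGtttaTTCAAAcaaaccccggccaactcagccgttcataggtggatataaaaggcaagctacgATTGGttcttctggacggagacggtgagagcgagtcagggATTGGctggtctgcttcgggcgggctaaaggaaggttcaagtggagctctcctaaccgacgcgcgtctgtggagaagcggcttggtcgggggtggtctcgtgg
TOP2B: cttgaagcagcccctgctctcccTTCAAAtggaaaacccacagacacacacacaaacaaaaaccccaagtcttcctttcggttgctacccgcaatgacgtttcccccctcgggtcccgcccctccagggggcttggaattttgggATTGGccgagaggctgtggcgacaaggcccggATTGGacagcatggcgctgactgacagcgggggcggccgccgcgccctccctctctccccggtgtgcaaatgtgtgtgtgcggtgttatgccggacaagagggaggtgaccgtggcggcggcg

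The TOP2A window held 4 CCAAT matches and 2 TTTGAA matches, none of which overlapped. Among 35116 RefSeq windows of the same length, 34.6% held at least 1 CCAAT and 0.991% held at least 4, while 15.2% held at least 1 TTTGAA and 2.27% at least 2. The TOP2B window held 2 CCAAT matches, as many or more than which were found in 10.8% of windows, and 1 TTTGAA match. RefSeq lists a second start site for TOP2B, and its window held no match to either. The windows of TOP1, TOP3A, TOP3B and TDP2 held no match to either, and that of TDP1 held 1 TTTGAA. A match describes letters in this window and not a bound site. RefSeq windows were matched by symbol for 7 of the 8 genes, and none was printed for TOP1MT.

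Before the drug, TOP2A was the most abundant of these transcripts per length. In GFP cells at 0 h it was at 75.3 ± 0.63 FPKM (CPM per kilobase of exon; mean ± s.d., n = 2 here and throughout), followed by TOP1 at 63.3 ± 0.96, TOP2B at 35.2 ± 0.68 and TDP2 at 21.0 ± 0.035. Lower levels were found for TDP1 (8.67 ± 0.34 FPKM) and TOP3A (8.22 ± 0.39), whose libraries overlapped, and for TOP1MT (5.47 ± 0.36) and TOP3B (2.73 ± 0.054). In transient control cells TOP2A, TOP1, TOP2B and TDP2 were again the first 4 in this order and TOP3B the last, with overlapping neighbours among TOP1MT, TOP3A and TDP1. After 48 h in GFP cells, TOP2A stood at 133 ± 1.5 FPKM and TOP1 at 60.4 ± 1.8. TOP3A (19.1 ± 0.82 FPKM) now stood above TDP2 (17.7 ± 0.053) and TOP2B (15.6 ± 0.70), and TOP1MT had become the lowest at 2.64 ± 0.094.

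**Figure D1:**
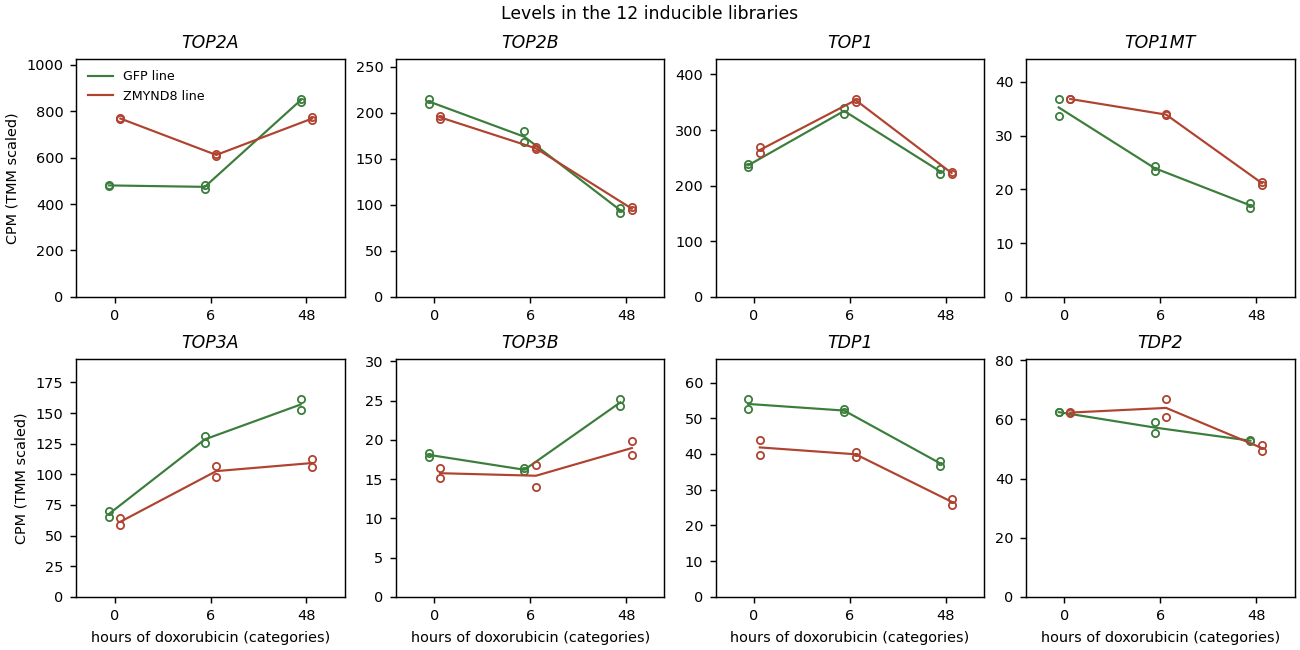
TMM-scaled CPM (y axis, from 0) of each gene in the 12 inducible libraries against hours of doxorubicin, drawn as categories, with 1 circle per library and lines through the means of the GFP line (green) and the ZMYND8 line (red). TOP2B, TOP1MT and TDP1 were lowest at 48 h in both lines, TOP1 was highest at 6 h, and the TOP2A lines cross between 6 and 48 h.

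In GFP cells 48 h of doxorubicin split the set. TOP2A, TOP3A and TOP3B rose, TOP2B, TOP1MT, TDP1 and TDP2 fell, and TOP1 did not pass the test. Thus 7 of the 8 genes were called at an adjusted p of 0.05 (edgeR quasi-likelihood test, Benjamini-Hochberg adjustment over all genes), where 64.2% of all 18801 genes tested were called. The median log2 fold change of the 8 was -0.16, against 0.028 over all genes. In the ZMYND8 line 7 of 8 were also called, where 62.3% of all genes were, with TOP3A and TOP3B higher, TOP2B, TOP1, TOP1MT, TDP1 and TDP2 lower, and no change called for TOP2A. The counts of called members are near the background share in both lines, so the sizes of the changes are described gene by gene. When libraries were scaled by total counts instead of by TMM factors, the all-gene median moved to a log2 fold change of 0.27 in GFP cells and 0.25 in ZMYND8 cells at 48 h. Under that scaling TDP2 in GFP cells (0.0029) was no longer lower, TOP1 in GFP cells was called higher (0.18), TOP2A in ZMYND8 cells was called higher (0.21), and TDP2 and TOP1 in ZMYND8 cells were no longer called, whereas the directions of TOP2B, TOP1MT, TDP1, TOP3A and TOP3B were kept in both lines.

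After 6 h, 4 of the 8 genes were called in GFP cells, where 47.9% of all genes were, and 4 in ZMYND8 cells, where 40.8% were. TOP1 and TOP3A rose and TOP2B fell in both lines, while TOP1MT fell in GFP cells and TOP2A fell in ZMYND8 cells. Between 6 and 48 h, 7 of the 8 were called in GFP cells (62.2% of all genes), all but TDP2, and 7 in ZMYND8 cells (61.5%), all but TOP3A. The study's own cutoff for this experiment was an unadjusted p of 0.05 and a change of 1.5 or more on the log2 scale in either direction. It was applied here to edgeR p-values, whereas the study's methods name cuffdiff, so its calls are not the study's own. In GFP cells it called 0 of the 8 genes at 6 h (4.71% of all genes), at 48 h (13.2%) and between these times (13.1%). In ZMYND8 cells it also called 0 (2.73%, 12.4% and 12.9%).

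**Figure D2:**
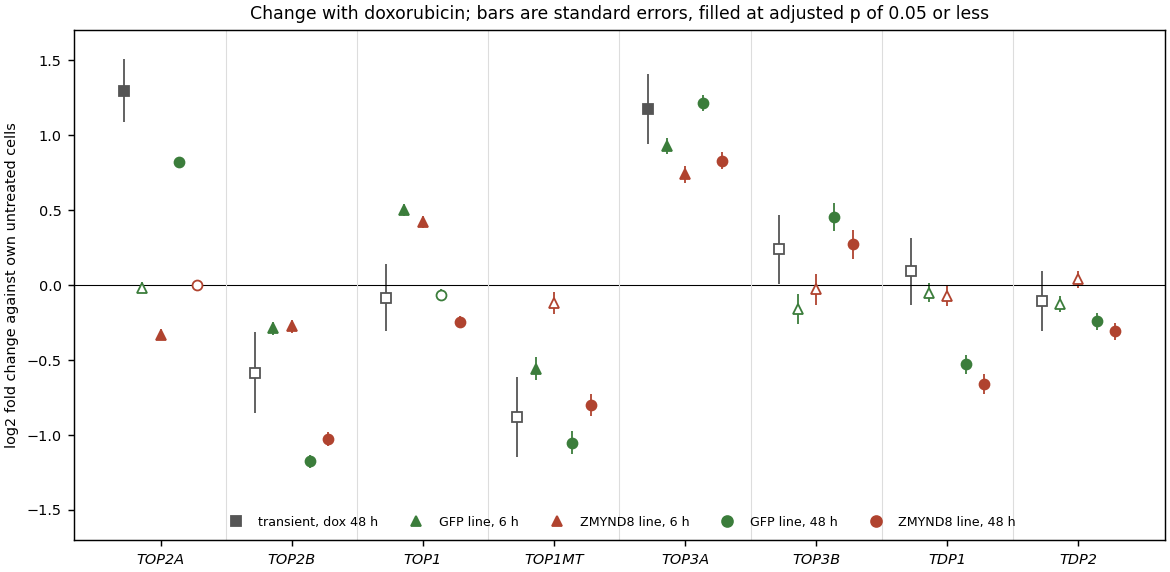
log2 fold change of each gene with doxorubicin against untreated cells of its own experiment or line, with bars of 1 standard error and filled symbols at an adjusted p of 0.05 or less. TOP2B and TOP1MT lie below 0 and TOP3A above 0 in all 5 comparisons, and TOP2A runs from -0.33 in the ZMYND8 line at 6 h to 1.30 in the transient experiment.

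TOP2A, the replication-linked target, took different courses in the inducible lines. In GFP cells it was at 477 and 483 CPM at 0 h, 466 and 482 CPM at 6 h and 841 and 854 CPM at 48 h. In ZMYND8 cells it was at 768 and 770 CPM at 0 h, 606 and 617 CPM at 6 h and 762 and 775 CPM at 48 h. The untreated ZMYND8 libraries were thus already far above the untreated GFP libraries, dipped at 6 h and came back to where they started, while the GFP libraries rose only after 6 h. The log2 fold change of TOP2A at 48 h was 0.82 ± 0.036 (standard error; adjusted p = 6.8e-17) in GFP cells and -6.8e-05 in ZMYND8 cells (standard error 0.036, adjusted p = 0.999). In ZMYND8 cells this value was 0.21 under total-count scaling (adjusted p = 7.2e-06, with the median of all genes at 0.25) and 0.089 with at least 10 counts required in every library (adjusted p = 0.028). At 6 h it fell by 0.33 in ZMYND8 cells (adjusted p = 2.5e-08) and stood at -0.019 in GFP cells (adjusted p = 0.72).

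TOP2B, the target that resting cells also make, fell in step in both lines. In GFP cells it was at 210 and 215 CPM at 0 h, 168 and 180 CPM at 6 h and 91.1 and 97.1 CPM at 48 h. In ZMYND8 cells it was at 194 and 197 CPM, then 160 and 162 CPM, then 94.5 and 97.1 CPM. No libraries overlapped between times in either line, and at 48 h the lines themselves overlapped. The log2 fold change at 48 h was -1.18 ± 0.045 (adjusted p = 2.5e-18) in GFP cells and -1.03 ± 0.044 (adjusted p = 5.3e-17) in ZMYND8 cells, and at 6 h it was -0.29 and -0.27. Of all genes tested in GFP cells, 6.20% lay as far below 0 at 48 h as TOP2B, whereas 19.4% lay as far above 0 as TOP2A.

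The balance between the targets can be read within a library, free of scaling between libraries. Per length, TOP2A exceeded TOP2B 2.10 and 2.18 times in GFP cells at 0 h, 2.54 and 2.63 times at 6 h and 8.34 and 8.76 times at 48 h. In ZMYND8 cells the ratio was 3.70 and 3.77 at 0 h, 3.58 and 3.60 at 6 h and 7.57 and 7.65 at 48 h. The ratio in transient cells was 1.85 and 2.21 in controls, 6.21 and 9.41 under doxorubicin, and 6.51 and 9.90 where the label adds Flag-ZMYND8. Every library treated for 48 h was above every library treated for 0 or 6 h. However, the second libraries of the transient drug conditions nearly coincide in their counts relative to depth. With 2 libraries against 2 an exact two-sided permutation test cannot fall below 0.333, so the ratio is given without a test.

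**Figure D3:**
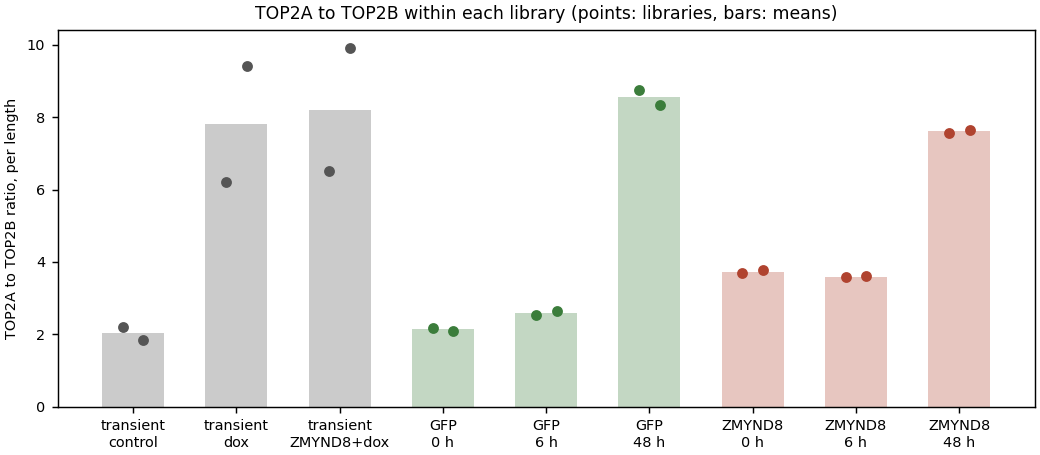
Ratio of TOP2A to TOP2B per length (y axis, from 0) in each of the 18 libraries (points) with the condition means as bars, for transient libraries in grey, the GFP line in green and the ZMYND8 line in red. The untreated ratio was near 2 in GFP and transient control cells and 3.70 to 3.77 in the ZMYND8 line, and all 48 h libraries sat between 6.21 and 9.90.

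TOP1, the nuclear single-strand enzyme, peaked early. It was at 234 and 239 CPM at 0 h, 329 and 340 CPM at 6 h and 221 and 230 CPM at 48 h in GFP cells, and at 258 and 270, 351 and 356, and 220 and 225 CPM in ZMYND8 cells. The 6 h libraries were the highest in each line, and the 48 h libraries were the lowest without overlap. TOP1 was higher at 6 h by 0.50 ± 0.040 on the log2 scale in GFP cells (adjusted p = 3.9e-11) and 0.42 ± 0.039 in ZMYND8 cells (adjusted p = 1.6e-09). At 48 h against 0 h it stood at -0.067 in GFP cells (adjusted p = 0.15) and fell by 0.25 in ZMYND8 cells (adjusted p = 6.0e-06). The latter call was lost under total-count scaling (-0.041, adjusted p = 0.36).

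TOP1MT (ENSG00000184428.12; chromosome 8, 143304384 to 143359979, minus strand), the mitochondrial counterpart of TOP1, went only down. In GFP cells it was at 33.6 and 36.9 CPM at 0 h, 23.5 and 24.4 CPM at 6 h and 16.6 and 17.4 CPM at 48 h. In ZMYND8 cells it was at 36.7 and 36.8, then 33.8 and 34.0, then 20.9 and 21.4 CPM. The lines started together and the GFP libraries had dropped further by 6 h. At 6 h TOP1MT fell by 0.56 on the log2 scale in GFP cells (adjusted p = 5.5e-07) and stood at -0.12 in ZMYND8 cells (adjusted p = 0.20). At 48 h it fell by 1.05 in GFP cells (adjusted p = 2.7e-12) and by 0.80 in ZMYND8 cells (adjusted p = 3.4e-10).

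TOP3A, the partner of BLM, rose at both times in both lines. It was at 65.3 and 69.9 CPM at 0 h, 126 and 131 CPM at 6 h and 152 and 162 CPM at 48 h in GFP cells. In ZMYND8 cells it was at 58.6 and 63.9, then 98.0 and 107, then 106 and 112 CPM, so that the 6 and 48 h libraries overlapped. The log2 fold change at 6 h was 0.93 ± 0.056 in GFP cells (adjusted p = 1.3e-13) and 0.74 ± 0.057 in ZMYND8 cells (adjusted p = 4.1e-11). At 48 h it was 1.22 ± 0.054 (adjusted p = 7.9e-17) and 0.83 ± 0.056 (adjusted p = 5.6e-13). At 6 h only 6.11% of all genes in GFP cells lay as far above 0.

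TOP3B was the least abundant member before treatment. In GFP cells it was at 17.8 and 18.4 CPM at 0 h, 16.004 and 16.4 CPM at 6 h and 24.3 and 25.3 CPM at 48 h, and in ZMYND8 cells it was at 15.1 and 16.4, 13.997 and 16.9, and 18.1 and 19.8 CPM. It was higher at 48 h by 0.45 ± 0.092 in GFP cells (adjusted p = 0.00012) and by 0.27 ± 0.096 in ZMYND8 cells (adjusted p = 0.016). The call in ZMYND8 cells was lost with DESeq2 (0.29, adjusted p = 0.096), without the filter on low counts (0.23, adjusted p = 0.064), without the second 0 h library (0.20, adjusted p = 0.17) and without the first 48 h library (0.20, adjusted p = 0.17). The antisense gene PPM1F-AS1 received 60 to 208 counts in the inducible libraries, where TOP3B received 284 to 578.

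TDP1 and TDP2, the repair enzymes, were both lower at 48 h than at 0 h in both lines. TDP1 was at 52.5 and 55.5 CPM at 0 h, 51.7 and 52.6 CPM at 6 h and 36.7 and 38.1 CPM at 48 h in GFP cells, and at 39.8 and 43.9, 39.2 and 40.6, and 25.7 and 27.5 CPM in ZMYND8 cells. TDP2, which acts on trapped topoisomerase II, was at 62.4 and 62.5, 55.5 and 59.0, and 52.7 and 52.9 CPM in GFP cells and at 62.1 and 62.5, 60.8 and 67.0, and 49.4 and 51.2 CPM in ZMYND8 cells. The 48 h libraries were the lowest of each line for both genes. TDP1 fell by 0.53 on the log2 scale in GFP cells (adjusted p = 3.9e-08) and by 0.66 in ZMYND8 cells (adjusted p = 2.6e-09). The falls of TDP2 were smaller, at 0.24 (adjusted p = 0.00043) and 0.31 (adjusted p = 2.5e-05), and it is these that total-count scaling took away (0.0029 and -0.10). Per length TDP2 exceeded TDP1 between 2.21 and 4.16 times in the inducible libraries.

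The ZMYND8 line differed from the GFP line in TOP2A before any drug was given. At 0 h 5 of the 8 genes were called, where 58.3% of all genes were. TOP2A was higher by 0.68 ± 0.036 on the log2 scale (adjusted p = 5.2e-15) and TOP1 by 0.16, while TDP1 was lower (-0.36, adjusted p = 1.7e-05), as were TOP2B (-0.12) and TOP3A (-0.14). The calls of TOP2B (adjusted p = 0.015) and TOP3A (adjusted p = 0.048) were the less secure. TOP3A lost its call with 5 of the other settings and TOP2B with total counts and DESeq2, so that these left 3 of the 8 genes. Without the first ZMYND8 library at 0 h both were lost (TOP2B -0.12, TOP3A -0.067). Without the first GFP library TOP3A stood at -0.090, and TOP2B was also lost without the second GFP library (-0.10) or the second ZMYND8 library (-0.11).

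After 6 h 6 of 8 were called (55.5% of all genes), with TOP2A (0.37), TOP1MT (0.50) and TDP2 (0.16) higher in ZMYND8 cells and TDP1 (-0.39), TOP3A (-0.33) and TOP2B (-0.11) lower. The calls of TDP2 and TOP2B were again the weak ones. TDP2 was lost in 4 other settings and without the first GFP library (0.12) or the first ZMYND8 library (0.087) at 6 h. TOP2B was lost with DESeq2 (-0.12) and without the first GFP library (-0.058), the first ZMYND8 library (-0.098) or the second ZMYND8 library (-0.12). After 48 h 5 of 8 were called (60% of all genes). TOP1MT was higher (0.31), and TOP3A (-0.52), TDP1 (-0.49), TOP3B (-0.39) and TOP2A (-0.14) were lower in ZMYND8 cells. TDP1 was lower in ZMYND8 cells by 0.36 to 0.49 on the log2 scale at each of the 3 times. TOP3A was also called lower at each (-0.14, -0.33 and -0.52), with its call at 0 h less secure. TOP2A was the member called higher in ZMYND8 cells at 0 and 6 h and lower at 48 h. By the study's cutoff 0 of the 8 genes differed between the lines at 0, 6 or 48 h, where 11.4%, 10.6% and 9.44% of all genes did. The 2 lines share no libraries, but the comparisons with 0 h within a line share their 0 h libraries.

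Whether the response to the drug differed between the lines was tested as the interaction of line and time. At 6 h 2 of 8 genes were called, where 13.4% of all genes were. The response of TOP2A was lower in ZMYND8 cells by 0.31 on the log2 scale (-0.31 ± 0.051, adjusted p = 0.00012) and that of TOP1MT was higher (0.44 ± 0.10, adjusted p = 0.0046), a call that DESeq2 did not give (0.42, adjusted p = 0.054). At 48 h 3 of 8 were called, all lower in ZMYND8 cells, where 28.6% of all genes were called and 15.8% were lower. TOP2A had the largest of these differences among the 8 genes at -0.82 ± 0.051 (adjusted p = 2.7e-12), which stayed between -0.86 and -0.81 under the 15 other settings. TOP3A followed at -0.38 ± 0.078 (adjusted p = 0.00039) and TOP1 at -0.18 ± 0.057 (adjusted p = 0.018). TOP1 was no longer called without the first GFP library at 0 h (-0.16), the second GFP library at 48 h (-0.15), the second ZMYND8 library at 0 h (-0.15) or the second ZMYND8 library at 48 h (-0.16). The TOP2B responses differed by 0.15 ± 0.063 at 48 h, which did not pass the test (adjusted p = 0.080). The study's cutoff called 0 of the 8 genes in the interactions at 6 and 48 h, where it called 2.01% and 3.7% of all genes. Of all genes, 8.66% lay as far below 0 in the interaction at 48 h as TOP2A.

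In the transient experiment the same 2 enzymes that rose most in GFP cells were called. TOP2A was at 342 and 359 CPM in control cells, 927 and 798 CPM under doxorubicin, and 685 and 814 CPM where the label adds Flag-ZMYND8. TOP3A was at 44.3 and 56.0 CPM, then 96.5 and 129 CPM, then 98.1 and 128 CPM. All treated libraries were above all controls for both genes, and the treated conditions overlapped, though their second libraries nearly coincide and may not be separate observations. With doxorubicin alone 2 of 8 genes were called, where 5.13% of 15697 genes were, and the median log2 fold change of the 8 was 0.0050, against -0.00038 over all genes. TOP2A was higher by 1.30 ± 0.21 on the log2 scale (adjusted p = 0.0093) and TOP3A by 1.17 ± 0.23 (adjusted p = 0.019). In the libraries labelled Flag-ZMYND8, compared with the same controls, 2 of 8 were called, where 6.82% of genes were, with TOP2A at 1.10 ± 0.21 (adjusted p = 0.014) and TOP3A at 1.17 ± 0.23 (adjusted p = 0.017). The study's cutoff for this experiment, an unadjusted p of 0.05 and a change of 1 or more on the log2 scale, called the same 2 genes in each comparison, where it called 8.7% and 9.84% of all genes.

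Without both second drug libraries, whose counts nearly coincide, TOP2A was still called with doxorubicin alone (1.41, adjusted p = 0.019) but TOP3A was not (0.95, adjusted p = 0.16). In the libraries labelled Flag-ZMYND8 neither was then called (TOP2A 0.95, adjusted p = 0.17, and TOP3A 0.95, adjusted p = 0.11). Each of these libraries alone had the same effect: TOP3A stood at 0.94 without the second doxorubicin library (adjusted p = 0.16), and TOP2A and TOP3A both stood at 0.95 without the second library labelled Flag-ZMYND8 (adjusted p = 0.099 and 0.12). The calls also depended on other libraries. Without the first control library TOP3A was at 1.00 (adjusted p = 0.084) with doxorubicin alone and at 0.99 (adjusted p = 0.067) with the label Flag-ZMYND8. Without the first library labelled Flag-ZMYND8, TOP2A was at 1.21 (adjusted p = 0.055) and TOP3A at 1.34 (adjusted p = 0.051).

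TOP2B and TOP1MT pointed down in the transient experiment. TOP2B was at 147 and 184 CPM in controls, 142 and 80.3 CPM under doxorubicin and 99.8 and 78.0 CPM where the label adds Flag-ZMYND8. TOP1MT was at 46.6 and 38.3 CPM in controls, 28.5 and 18.3 CPM with doxorubicin, and 28.2 and 21.8 CPM with the label Flag-ZMYND8. Every treated library was below every control for both genes. Their log2 fold changes of -0.58 (adjusted p = 0.23) and -0.88 (adjusted p = 0.081) with doxorubicin alone, and of -0.90 (adjusted p = 0.073) and -0.76 (adjusted p = 0.11) with the label Flag-ZMYND8, did not pass the test. With doxorubicin alone these values moved with single libraries, none of which gave a call. TOP2B stood at -0.22 without the second doxorubicin library, -1.05 without the first, and -0.42 without the second control, and TOP1MT at -0.57 without the second doxorubicin library and -1.21 without the first. With the label Flag-ZMYND8, leaving out single libraries gave -1.09 to -0.73 for TOP2B and -0.96 to -0.60 for TOP1MT, with no call. Without both second drug libraries TOP2B was at -0.22 (adjusted p = 0.94) and TOP1MT at -0.57 (adjusted p = 0.69) with doxorubicin alone, and at -0.75 (adjusted p = 0.32) and -0.60 (adjusted p = 0.50) with the label Flag-ZMYND8. Same-numbered transient libraries deviated together. With the replicate number as a block, TOP1MT was called with doxorubicin alone (-0.89, adjusted p = 0.0087), and TOP2B (-0.93, adjusted p = 0.014) and TOP1MT (-0.77, adjusted p = 0.018) were called with the label Flag-ZMYND8. The block thus gave 4 of 8 genes in that comparison, a count not set against the share of all genes called with the block. TOP2B was also called there with DESeq2 (-0.92, adjusted p = 0.024).

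TOP1, TDP1 and TDP2 stayed between -0.11 and 0.093 on the log2 scale in both comparisons with the transient control, within their standard errors of 0.20 to 0.23. TOP1 also shares 5.46% of its exon bases with the antisense gene PLCG1-AS1, which was at 34.1 to 44.7 CPM in these libraries, and that stretch cannot be told apart. TOP3B stood at 0.24 and 0.41, but its transient counts (133 to 949) cannot be told apart from those of PPM1F-AS1 (196 to 1381), since these libraries did not separate the strands. Between the libraries labelled Flag-ZMYND8 and those with doxorubicin alone, 0 of 8 genes were called by edgeR, where 0% of all genes were. DESeq2 also called 0, and 0 had an unadjusted p of 0.05 or less. The study's cutoff called 0 as well, where it called 0.159% of all genes. The differences ran from -0.31 for TOP2B to 0.17 for TOP3B, with standard errors of 0.20 to 0.27.

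**Figure D4:**
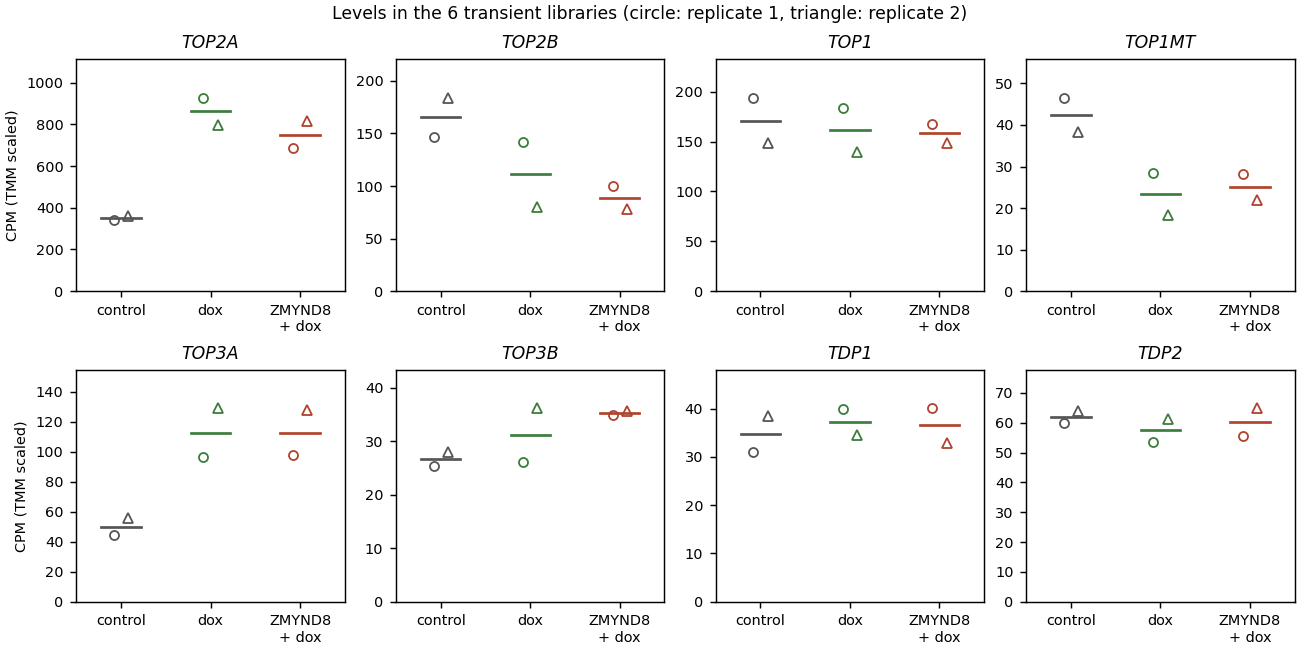
TMM-scaled CPM (y axis, from 0) of each gene in the 6 transient libraries, with circles for the first and triangles for the second library of a condition and bars at the means. All 4 treated libraries lie above both controls for TOP2A and TOP3A and below both for TOP2B and TOP1MT. The second libraries of the drug conditions nearly coincide in their counts relative to depth, so the 4 may not be separate observations.

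TOP2A was set beside genes of the cell cycle, taken as 10 G2/M genes and 10 S phase genes, and it did not follow either list in every comparison. Summed over the G2/M list, GFP libraries held 1601 and 1638 CPM at 0 h, 1453 and 1455 CPM at 6 h and 1908 and 1916 CPM at 48 h. ZMYND8 libraries held 2412 and 2469, 1952 and 1971, and 2005 and 2007 CPM. As for TOP2A, the untreated ZMYND8 libraries were above the untreated GFP libraries. All 10 G2/M genes were called higher in ZMYND8 cells at 0 h, where 28.7% of all genes were, with a median log2 difference of 0.52 against 0 over all genes. CENPF, a kinetochore protein, was higher by 1.02 and CDK1, the mitotic kinase, by 0.89. The S phase list did not share this difference. At 0 h 3 of its genes were called higher and 6 lower in ZMYND8 cells (28.7% and 29.5% of all genes), with a median of -0.22. The part of cell cycle phase in the TOP2A values was not tested.

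The S phase list rose with the drug in both lines. At 6 h all 10 genes were called higher in each line (22.1% of all genes in GFP and 21.8% in ZMYND8 cells), with medians of 0.61 and 0.47. At 48 h all 10 were higher in GFP cells (32.4% of all genes; median 1.12), led by the replication licensing factor CDC6 (2.15) and the ribonucleotide reductase subunit RRM2 (2.09). In ZMYND8 cells 8 of 10 were higher and 2 lower at 48 h (31.6% and 30.8% of all genes; median 0.55), and of the G2/M genes 1 was higher and 7 were lower (median -0.44). In GFP cells 6 of the G2/M genes were higher at 48 h and 3 were lower, among them CDK1 (0.93) and PLK1 (-0.91). In the interaction at 48 h all 20 genes were called lower in ZMYND8 cells, where 15.8% of all genes were, as TOP2A was. In the transient experiment 8 of 10 S phase genes and 4 of 10 G2/M genes were called higher with doxorubicin alone, where 2.98% of all genes were, with RRM2 at 2.12 and CDK1 at 1.27. Without both second drug libraries these counts were 4 and 2 (1.28% of all genes), and RRM2 (1.99) and CDK1 (1.35) were still called.

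**Figure D5:**
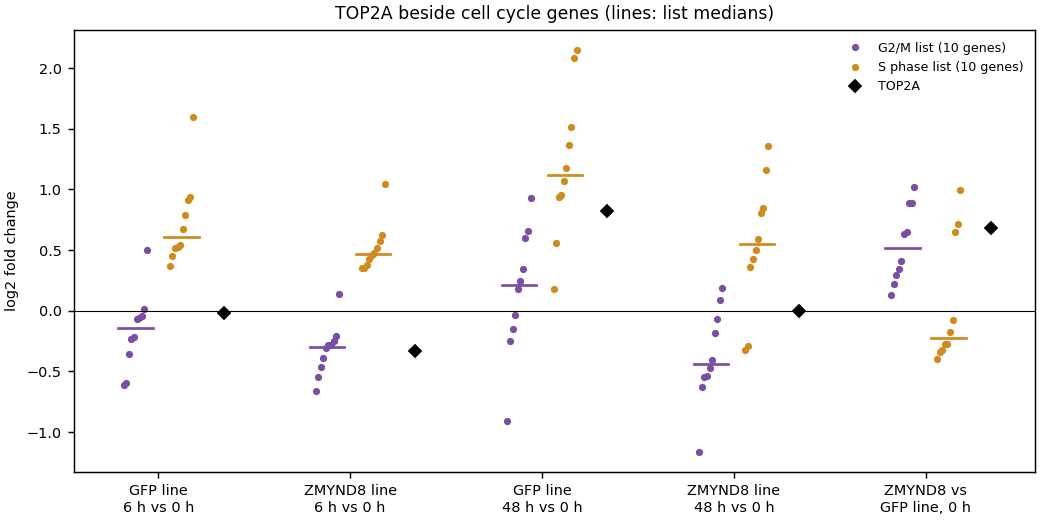
log2 fold changes of 10 G2/M genes (purple), 10 S phase genes (orange; lines at the medians) and TOP2A (black diamonds) for 4 comparisons with the drug and for the untreated ZMYND8 line against the untreated GFP line. TOP2A lies with the G2/M genes at 6 h and between the lists' medians at 48 h, and it is above 0 with all 10 G2/M genes in the untreated comparison.

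Of 9 partners of topoisomerases, 6 were called higher and 2 lower in GFP cells at 48 h (32.4% and 31.8% of all genes; median 0.40). The TOP3A complex took part: BLM, its helicase, was at 15.2 ± 1.4 CPM at 0 h and 39.0 ± 1.2 CPM at 48 h (1.36, adjusted p = 3.7e-13), and RMI1, its scaffold, was at 30.6 ± 3.4 and 77.4 ± 3.7 CPM (1.34, adjusted p = 1.7e-15). TDRD3, the partner of TOP3B, was lower by 1.03 (-1.03, adjusted p = 2.2e-08), while TOP3B itself was higher. BTBD2, a TOP1-binding protein, was also lower (-1.02). In the transient experiment 3 partners were higher and 1 lower with doxorubicin (2.98% and 2.15% of all genes), with BLM at 1.72, RMI1 at 1.16 and TDRD3 at -1.34. Without both second drug libraries BLM was the 1 partner still called (1.82, adjusted p = 0.0016), with RMI1 at 0.96 (adjusted p = 0.18) and TDRD3 at -1.10 (adjusted p = 0.26). At 0 h 7 partners were higher and 2 lower in ZMYND8 than in GFP cells (28.7% and 29.5% of all genes), with BLM higher (1.00), TDRD3 higher (0.61), BTBD2 lower (-0.96) and TOPORS lower (-0.15). In the interaction at 48 h 5 partners were called lower in ZMYND8 cells by edgeR and 0 higher, where 15.8% and 12.7% of all genes were.

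Of 10 genes for the proteolysis of trapped enzymes and for the signals that mark them, 4 were called higher and 3 lower in GFP cells at 48 h, near the shares of all genes (32.4% and 31.8%), and the called changes were at most 0.41 on the log2 scale. SPRTN, a protease of DNA-protein crosslinks, was higher at 48 h (0.39), as was the E3 ligase PIAS4 (0.41). At 6 h the list held 4 called higher and 1 lower (22.1% and 25.8% of all genes), and SPRTN was higher by 0.58 (adjusted p = 1.3e-07). In the transient experiment edgeR called 0 of the 9 tested with doxorubicin alone, and 1 had an unadjusted p of 0.05 or less. Before the drug 5 of 10 were higher and 3 lower in ZMYND8 than in GFP cells (28.7% and 29.5% of all genes). The germ cell protease homologue GCNA was the outlying one, at 0.31 ± 0.14 CPM in GFP and 5.14 ± 0.16 CPM in ZMYND8 cells (4.03, adjusted p = 4.3e-11).

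Among 13 nucleases and end-cleaning enzymes, 5 rose and 3 fell in GFP cells at 48 h (32.4% and 31.8% of all genes). EME1, the partner of the MUS81 nuclease, was higher (1.32), as was the endonuclease APEX2 (1.12), whereas NBN of the MRE11 complex (-0.72) and the nuclease scaffold SLX4 (-0.40) were lower. With doxorubicin in the transient experiment 2 of 13 rose (2.98% of all genes), RBBP8 (1.22), which starts end resection, and EME1 (0.94). Neither was called without both second drug libraries (1.15, adjusted p = 0.053, and 0.91, adjusted p = 0.23). In untreated ZMYND8 cells 7 of 13 were higher than in GFP cells and 1 was lower (28.7% and 29.5% of all genes), with APEX2 at 1.02 and APEX1 at -0.28. Of the 9 tested genes of 10 for joining strand breaks, 6 rose and 3 fell in GFP cells at 48 h (32.4% and 31.8% of all genes). DNA ligase LIG1 (1.09) and PARP1 (0.90), the sensor of strand breaks, were higher, and the end-joining factors XRCC4 (-0.86) and PRKDC (-0.44) were lower. LIG1 was also the 1 joining gene called in the transient experiment with doxorubicin (1.57; 2.98% of all genes rose), also without both second drug libraries (1.66, adjusted p = 0.00043). In untreated ZMYND8 cells 5 were higher and 2 lower (28.7% and 29.5% of all genes), with LIG4 at 0.61, XRCC5 at 0.43, XRCC1 at -0.51 and LIG1 at -0.40.

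The transcripts most like each member were sought by Pearson's r of log2 CPM over the 12 inducible libraries among 10245 genes, as a description. The libraries share their lines and times, so high values are common. TOP2A was most like GTSE1 (r = 0.99), CEP85 (0.98) and GINS1 (0.97), for which r over the 6 transient libraries was 0.96, 0.94 and 0.91. TOP2B was most like MEF2A, SUPT3H and PTPRM (0.99 each), with 0.88, 0.72 and 0.90 in the transient libraries. TOP3A was most like GUCD1 (0.99), RAD1 (0.98) and GINS3 (0.98), with 0.93, 0.95 and 0.97. For TOP1MT the list was MARCKS, IGF2R and OSBPL3 (0.99 each), with 0.90, 0.71 and 0.52. Likeness to TOP1 (B3GALNT2, FRMD6 and ELAC2, each 0.98) turned negative in the transient libraries (-0.42, -0.14 and -0.31). The lists of TOP3B (RANBP10, ZSWIM8 and PLSCR1), TDP1 (PTPRA, DENND6A and ENDOD1) and TDP2 (NRDC, UBE2K and FKBP14) had r between 0.96 and 0.99 in the inducible and between -0.48 and 0.70 in the transient libraries.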

How the data were processed

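Messenger RNA was sequenced from 18 libraries, grouped by their labels. The authors deposited unnormalised counts of read pairs for each gene, made with featureCounts 1.6.4 on GENCODE 31 (hg38), reverse-stranded, per the file headers. The study's methods name TopHat as the aligner and cuffdiff for the comparisons, whereas the submitters' processing notes name Trim Galore, HISAT2 and DESeq2. The deposited column of gene lengths, in bases of exon, served for values per length.

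Counts of each experiment were fitted together in edgeR 4.0.16 (R 4.3.3; TMM factors, filterByExpr, 1 mean per condition, quasi-likelihood test), and genes were called at an adjusted p of at most 0.05 over all 15697 (transient) or 18801 (inducible) genes tested. Levels are TMM-scaled CPM, with a prior count of 2 for log2 values. A standard error is the log2 fold change divided by the square root of F. Replicates are described as biological, without stating separate cultures, so p-values measure the spread between these libraries. Counting error is smallest for the deepest libraries and most abundant genes.

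The members and gene lists were chosen with earlier results of these data known. All 8 members are named, and each list contributes up to 2 called genes with the greatest increase and up to 2 with the greatest decrease, given an average log2 CPM of at least 1, in 3 comparisons (doxorubicin in the transient experiment, 48 h against 0 h in GFP cells, and ZMYND8 against GFP cells at 0 h), and the 3 genes most like each member. Same-numbered libraries deviated together in the transient (r = 0.21 to 0.40 over 3 pairs of conditions) and not in the inducible experiment (-0.046 to 0.022 over 15 pairs). Alternatives were RLE size factors, total counts, no filter, at least 10 counts in every library, DESeq2 1.42.0, the compared groups alone, a replicate block, each library left out, and the study's cutoff (unadjusted p of 0.05 and a log2 fold change of 1 or 1.5). One gene that the naming rule gives is not reported here.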

Additional observations from a re-analysis of the deposited data

Results flagged for a closer look

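A difference between the ZMYND8 and GFP lines in the response to doxorubicin was tested directly (edgeR, interaction of line and time). It was called for 2 of the 8 genes at 6 h and for 3 at 48 h, where 13.4% and 28.6% of all genes were called. At 6 h TOP2A differed by -0.31 on the log2 scale (adjusted p = 0.00012) and TOP1MT by 0.44 (adjusted p = 0.0046, but 0.054 with DESeq2). At 48 h TOP2A differed by -0.82 (adjusted p = 2.7e-12), TOP3A by -0.38 (adjusted p = 0.00039) and TOP1 by -0.18 (adjusted p = 0.018). The untreated ZMYND8 libraries held 768 and 770 CPM of TOP2A and the untreated GFP libraries 477 and 483 CPM. The listed G2/M and S phase genes were called lower in the same interaction at 48 h in 20 of 20 cases, where 15.8% of all genes were. The part of cell cycle phase in these differences was not tested.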

How the results depend on the processing

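Each called member change was counted once per setting, so the totals here are pairs of a change and a setting. Over the settings other than single libraries left out, 408 of 431 such pairs kept direction and call. In 22 the call was lost and in 1 the sign changed (TDP2 in GFP cells at 48 h). With single libraries left out, 239 of 264 pairs kept both and 25 lost the call. The number of members called with doxorubicin in the transient experiment was 1 without both second drug libraries, a setting chosen after seeing the data, and 1 to 2 with single libraries left out. With the label Flag-ZMYND8 it was 0 and 0 to 2. The numbers with single libraries left out were 3 to 4 for ZMYND8 against GFP at 0 h. Total counts and DESeq2 both gave 3 in that comparison, and they gave 4 and 1 in the interaction at 6 h, where DESeq2 lost TOP1MT (0.42, adjusted p = 0.054). The study's cutoff called 0 members in all 9 inducible comparisons between conditions and in both interactions. Without length, 5 of the 8 genes kept their rank of level in untreated GFP cells. The cause of these shifts was not tested. The counts of members under other settings were not set against the share of all genes called under the same setting. Without both second drug libraries that share was also smaller in both comparisons with the transient control. The lower counts of members there are therefore not specific to these genes.

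In the transient experiment the replicate block gave 4 called genes with the label Flag-ZMYND8 and added TOP1MT with doxorubicin alone. The share of all genes called with the block is not given, so these calls were not set against it. Same-numbered libraries deviated together in the transient experiment (r = 0.21 to 0.40). However, the highest r includes the second drug libraries, whose counts nearly coincide relative to depth. The block was not run without them. In the inducible experiment, where the numbers are shared only as names, the block changed 1 call (TOP3A in ZMYND8 against GFP at 0 h, -0.14, adjusted p = 0.052). TOP3A between the transient drug conditions stood at 0.0027 with the block.

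Apart from TDP2 in GFP cells at 48 h, the other sign changes were in differences that had not been called. Total counts gave, in transient doxorubicin against control, 0.067 for TOP1 and 0.044 for TDP2, and with the label Flag-ZMYND8 0.030 and 0.097. They gave 0.18 for TOP1 and 0.0029 for TDP2 in GFP cells at 48 h, 0.13 for TDP2 at 48 against 6 h, -0.045 for TDP2 and 0.21 for TOP2A in ZMYND8 cells at 6 and 48 h, 0.034 for TDP2 between the lines at 0 h, and -0.066 for TOP2B in the interaction at 6 h. Total counts moved the median of all genes to 0.15 and 0.14 in the transient comparisons with control. Without both second drug libraries, TOP1 was at 0.11 and TOP3B at -0.022 with doxorubicin, and TOP1MT at -0.033 and TOP3A at 0.0018 between the drug conditions. TOP2A in GFP cells at 6 h was at 0.029 without the filter and 0.023 with the compared groups alone. TOP2A in ZMYND8 cells at 48 h was at 0.014 with the compared groups alone, 0.089 with at least 10 counts in every library, 0.021 with RLE factors and 0.017 with DESeq2. TOP1 was at 0.0082 with at least 10 counts in GFP cells at 48 h and at 0.012 with the compared groups alone between the lines at 48 h. TDP2 between the lines at 0 h was at 0.0071 (compared groups alone), 0.0076 (RLE) and 0.0074 (DESeq2). TOP2B in the interaction at 6 h was at -0.019 (no filter), -0.0097 (compared groups alone), -0.0094 (RLE) and -0.0084 (DESeq2).

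With single libraries left out, signs also differed for uncalled changes. With doxorubicin in the transient experiment the ranges were -0.30 to 0.11 for TOP1, -0.025 to 0.43 for TOP3B and -0.069 to 0.25 for TDP1. With the label Flag-ZMYND8 they were -0.30 to 0.079 for TOP1, -0.091 to 0.23 for TDP1 and -0.17 to 0.060 for TDP2. Between the drug conditions they were -0.69 to 0.14 for TOP2B, -0.23 to 0.18 for TOP1, -0.20 to 0.44 for TOP1MT, -0.23 to 0.21 for TOP3A, -0.036 to 0.42 for TOP3B, -0.17 to 0.087 for TDP1 and -0.074 to 0.17 for TDP2. In GFP cells TOP2A at 6 h ran from -0.039 to 0.0063. In ZMYND8 cells the ranges at 6 h were -0.16 to 0.10 for TOP3B, -0.14 to 0.0077 for TDP1 and -0.033 to 0.11 for TDP2, and TOP2A at 48 h ran from -0.028 to 0.0016. Between the lines they were -0.0019 to 0.13 for TOP1MT and -0.0068 to 0.0066 for TDP2 at 0 h, -0.21 to 0.059 for TOP3B at 6 h, and -0.022 to 0.072 for TOP2B and -0.051 to 0.011 for TOP1 at 48 h. In the interaction at 6 h they were -0.034 to 0.065 for TOP2B, -0.0063 to 0.26 for TOP3B and -0.098 to 0.056 for TDP1. The transient libraries held at most 5972396 counts in all but 1 case, and standard errors of the members there were 0.20 to 0.27, against 0.036 to 0.10 in the inducible comparisons between conditions.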
